A study of Mus musculus with 8 samples.

Results

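The transcripts described here encode voltage-gated and potassium ion channels in cultured mouse astrocytes and in the gliomaspheres derived from them. They were taken by gene symbol, under a rule set with earlier results of these data known. The rule covers every symbol of the count table beginning with Kcn (other than Kcnj10), Scn and a digit, Cacna, Cacnb, Cacng, or Hcn and a digit. This took 79 of 13607 genes, of which 77 code for proteins and 2 are non-coding transcripts (Kcnd3os and Kcnq1ot1) that are not read as channels. GENCODE M21 on GRCm38 holds 137 protein-coding genes that meet the same rule, and the other 60 were not analysed here. Each gene of the table reached 1 CPM (the library's counts scaled to a common total) in at least 2 libraries, so a channel transcript that is low everywhere could enter only through a group in which it was higher. Counts over the 79 members therefore describe these rows, to be read against the shares of all genes, which passed the same floor.

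RNA came from C57BL/6J astrocytes carrying floxed alleles of Yap1 and of Taz (Wwtr1), grown with EGF and bFGF in all groups. The labels describe lentiviral delivery of a doxycycline-inducible, constitutively active HER2 (HER2CA), of the doxycycline-dependent activator rtTA, and of CreERT2, a recombinase that 4-hydroxytamoxifen (4OH-TAM) switches on. The 4 groups of 2 libraries were untransformed control astrocytes without doxycycline, HER2CA astrocytes after 15 days with doxycycline and DMSO, HER2CA astrocytes that received 1 µM 4OH-TAM beside doxycycline for those 15 days, and gliomaspheres, a suspension culture kept for 3 weeks with DMSO and doxycycline. The series asks what loss of YAP and TAZ does during transformation by the oncogene. The labels do not say whether controls also received the constructs, nor whether replicates A and B were separate cultures. The p-values therefore rest only on spread between A and B, which may be technical. The fit shares that spread over the groups and in part over genes. In bulk RNA, fewer cells of a type and less RNA per cell cannot be told apart.

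Ion channels are membrane pores that open in response to voltage, ligands, calcium, sodium, stretch or pH. Potassium channels are the largest group; in astrocytes, inward rectifiers and leak channels with a pair of pore domains hold the membrane near the potassium equilibrium and support potassium uptake around neurons. Voltage-gated sodium and calcium channels drive action potentials and calcium entry in excitable cells, and astrocytes and glial progenitors carry some of them too. Auxiliary subunits do not form the pore but set the amount, place and gating of the pore-forming subunits.

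Library totals ran from 15517708 to 28231426 counts, and the channel transcripts took 0.0727% to 0.259% of them. Gliomaspheres B stood apart: the ribosomal RNA transcript Rn45s made up 36.1% of its counts, against at most 2.92% in the other libraries. Levels below are CPM with library sizes scaled by the trimmed mean of M-values (TMM), and values are listed for replicate A and then B. Erbb2, the mouse gene of HER2, was at 32.8 and 31.2 CPM in controls and 30.9 and 30.1 CPM in HER2CA day 15 (log2 fold change −0.07, adjusted p = 0.462), and lower in gliomaspheres, at 21.3 and 24.0 CPM (−0.51 against control). The labels do not state whether reads of the HER2CA construct would be counted there. Of the targeted genes, Wwtr1 was at 123 and 122 CPM under the 4OH-TAM label and at 194 and 210.3 CPM in HER2CA day 15 (log2 fold change −0.73, SE 0.0687, adjusted p = 1.25e-07). Yap1 was at 107 and 103 CPM against 101 and 103 CPM (log2 fold change 0.04, SE 0.0682, adjusted p = 0.569). The counts thus did not show the loss of Yap1 that the label implies. Which exons are floxed is not stated in the labels, so each direction below rests on the labels. Astrocyte identity was checked with a list of 12 marker transcripts, all of them measured. Their summed level was 7041 to 8230 CPM in controls, 2947 to 3046 CPM in HER2CA day 15, 13800 to 14300 CPM under the 4OH-TAM label and 12690 to 13210 CPM in gliomaspheres.

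HER2CA day 15 was the group with the least channel RNA. For 57 of the 79 members (72.2%) it had the lowest mean of the 4 groups, as it did for 35.8% of all genes. Gliomaspheres had the highest mean for 35 members (44.3%, against 26.2% of all genes), the 4OH-TAM-labelled libraries for 20 (25.3%, against 18.2%), controls for 18 (22.8%, against 19.1%) and HER2CA day 15 for 6 (7.59%, against 36.5% of all genes). Summed over the 79 members, the level was 1417 and 1423 CPM in controls, 707.7 and 738.5 CPM in HER2CA day 15, 1664 and 1627 CPM under the 4OH-TAM label, and 2447 and 2670 CPM in gliomaspheres. The pairs of libraries did not overlap between any of the groups. For members the highest group mean was a median of 5.02 times the lowest, against 2.09 times over all genes. This ratio was not matched for level, and low counts can make it large. Members were low transcripts, with a median level of 6.13 CPM over the 8 libraries against 28.2 CPM for all genes. In their highest group 25 members (31.6%) and 12.7% of all genes stayed under 5 CPM.

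**Figure D1:**
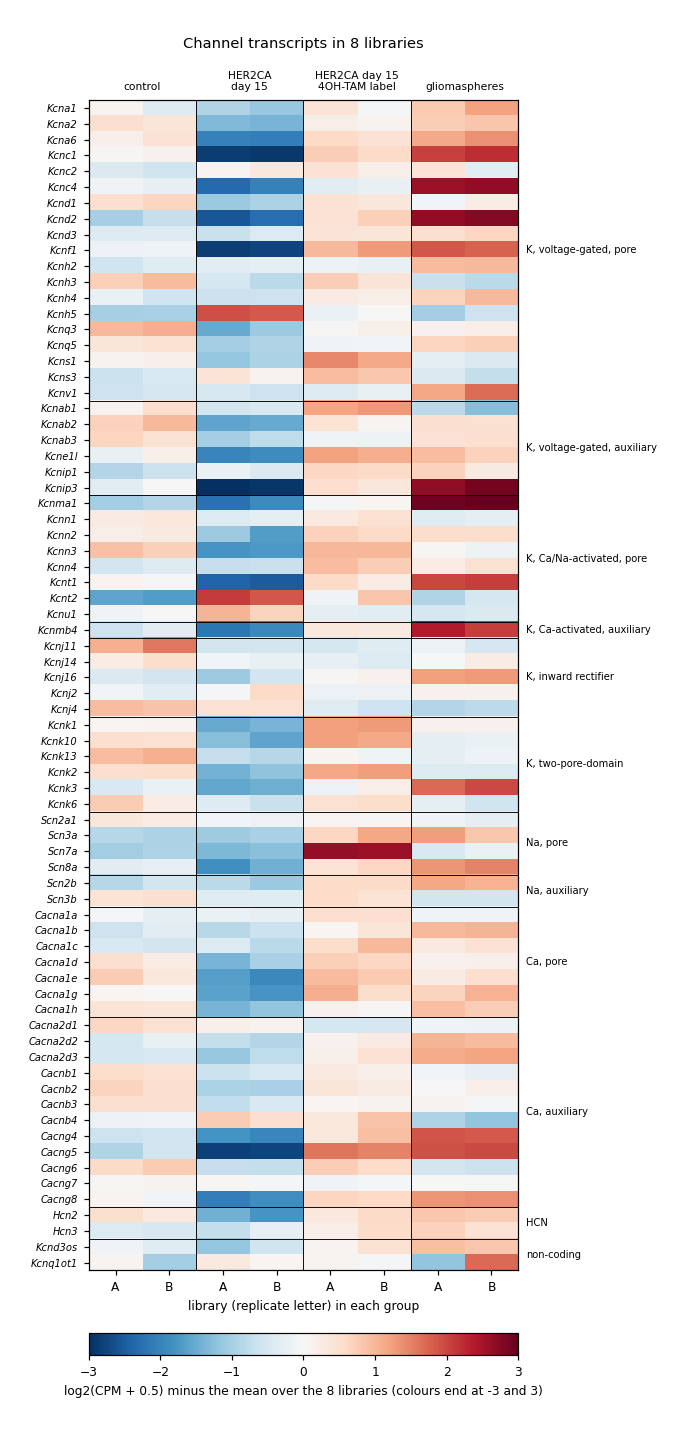
Relative level of 74 of the 79 members (rows, grouped by channel class) in each of the 8 libraries (columns); colour is log2(CPM + 0.5) minus the row's mean over the libraries. Most rows are blue in the 2 HER2CA day 15 columns, Kcnh5 and Kcnt2 are the reverse, and Kcnq1ot1 differs between gliomaspheres A and B.

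**Figure D2:**
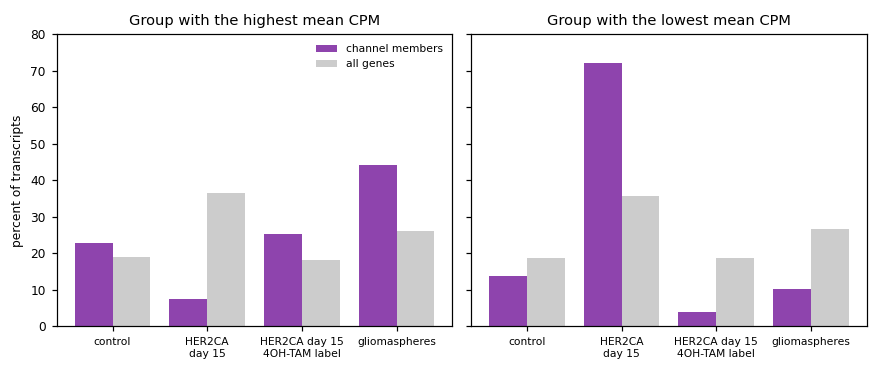
Percent of the 79 members (purple) and of all 13607 genes (grey) whose highest (left) or lowest (right) mean CPM fell in each of the 4 groups. HER2CA day 15 was lowest for 72.2% of members and 35.8% of genes.

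The first comparison set HER2CA astrocytes after 15 days with doxycycline against control astrocytes without it. The labels give no day for controls, so oncogene, doxycycline and time in culture cannot be told apart. Of the 79 members 55 fell (69.6%) and 10 rose (12.7%), where 38.4% of all genes fell and 37.3% rose (edgeR quasi-likelihood test, adjusted p under 0.05). A fall of at least 2-fold was called for 45 members (57%) and 19.5% of all genes. The median log2 fold change was −1.56 for the members and −0.02 for all genes. Markers of several cell types moved with this result: 11 of 12 measured astrocyte and 11 of 13 oligodendrocyte-lineage markers fell, and 0 rose in either list. Of the microglial markers 9 of 13 fell and 1 rose, of the mural and fibroblast markers 6 of 10 and 1, of the neuronal markers 6 of 12 and 3, and of the endothelial markers 1 of 2 and 0. Summed microglial markers were not lower, at 161 and 175 CPM in controls and 173 and 188 CPM in HER2CA day 15. The sums of the other marker lists were lower in HER2CA day 15. The part of these markers in the channel result was not tested.

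The second comparison set HER2CA day 15 beside the 4OH-TAM-labelled libraries; it shares its HER2CA day 15 libraries with the first. Here 62 members were higher (78.5%) and 7 lower (8.86%), against 40.8% and 39.7% of all genes. At least 2-fold higher were 50 members (63.3%) and 23.9% of all genes. The median log2 fold change was 1.75 for the members and 0.01 for all genes. Markers of several cell types were higher in the same libraries: 12 of 12 measured astrocyte, 13 of 13 oligodendrocyte-lineage, 12 of 13 microglial, 10 of 12 neuronal, 8 of 10 mural and fibroblast and 2 of 2 endothelial markers. Their summed levels in HER2CA day 15 and under the 4OH-TAM label were 153 to 160.4 and 1060 to 1103 CPM for the oligodendrocyte lineage, 173 to 188 and 410.4 to 440.5 CPM for microglia, and 61 to 68.1 and 146 to 153 CPM for neurons. They were 343 and 357 to 407 CPM for mural cells and fibroblasts, and 3 to 3.16 and 25.6 to 28.7 CPM for endothelium. The neuronal markers Rbfox3, Snap25, Syt1 and Slc17a6 and the microglial marker Aif1 were not analysed here. Nor were Mog of the oligodendrocyte lineage or Lum and Abcc9 of the mural and fibroblast list. Only 2 of the 7 endothelial markers listed were measured, without Pecam1, Cdh5, Cldn5, Tek and Emcn. The part of these cell types in the channel result was not tested.

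Gliomaspheres were also compared with HER2CA day 15 and with control. Against HER2CA day 15, 56 members were higher and 7 lower (70.9% and 8.86%, against 38.4% and 40.4% of all genes). Against control, 43 were higher and 22 lower (54.4% and 27.8%, against 32.5% and 32% of all genes). Without gliomaspheres B these numbers were 56 and 8, and 40 and 23. Summed oligodendrocyte-lineage markers reached 3189 to 3512 CPM in gliomaspheres and 572 to 625 CPM in controls (10 of 13 higher, 2 lower). Neuronal markers were at 207 to 237 CPM and 91.2 to 94.5 CPM (9 of 12 higher, 3 lower). Microglial markers went the other way, at 67.4 to 68.2 CPM in gliomaspheres and 161 to 175 CPM in controls (7 of 13 lower, 1 higher), as did mural and fibroblast markers, at 199.7 to 202 CPM and 461 to 519 CPM (7 of 10 lower, 1 higher). Against the 4OH-TAM label, 12 of 13 microglial and 8 of 10 mural and fibroblast markers were lower in gliomaspheres. Of the 13 oligodendrocyte-lineage markers 4 were higher and 5 lower there, so the larger sum in gliomaspheres does not describe each marker. The part of these cell types was not tested. The 4OH-TAM-labelled libraries, set against control, had 41 members higher and 15 lower (51.9% and 19%, against 31% and 28.2% of all genes; 30 and 5 with no scaling factors). Between gliomaspheres and the 4OH-TAM-labelled libraries, 30 members were higher and 22 lower in gliomaspheres (38% and 27.8%), shares close to the 31.3% and 29.7% of all genes; without gliomaspheres B the numbers were 28 and 23, and with no scaling factors 12 and 22.

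Because members were lower than genes at large, the shares were also read on each side of a limit of 5 CPM for the mean over the 8 libraries. Levels within each side were not matched, and the limit was chosen after the data were seen. In HER2CA day 15 against control, 34 of the 44 members at or above it fell (77.3%, against 37.1% of 11125 genes), and 21 of the 35 below it (60%, against 44.4% of 2482 genes). Members higher under the 4OH-TAM label than in HER2CA day 15 made up 77.3% above the limit (35.3% of genes) and 80% below it (65.2% of genes). For gliomaspheres against HER2CA day 15 the shares that were higher were 75% (36.6% of genes) and 65.7% (46.4%), and against control 52.3% (32.5%) and 57.1% (32.7%). For the 4OH-TAM label against control they were 50% above the limit (26.7% of genes) and 54.3% below it, near the 50.3% of genes there.

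**Figure D3:**
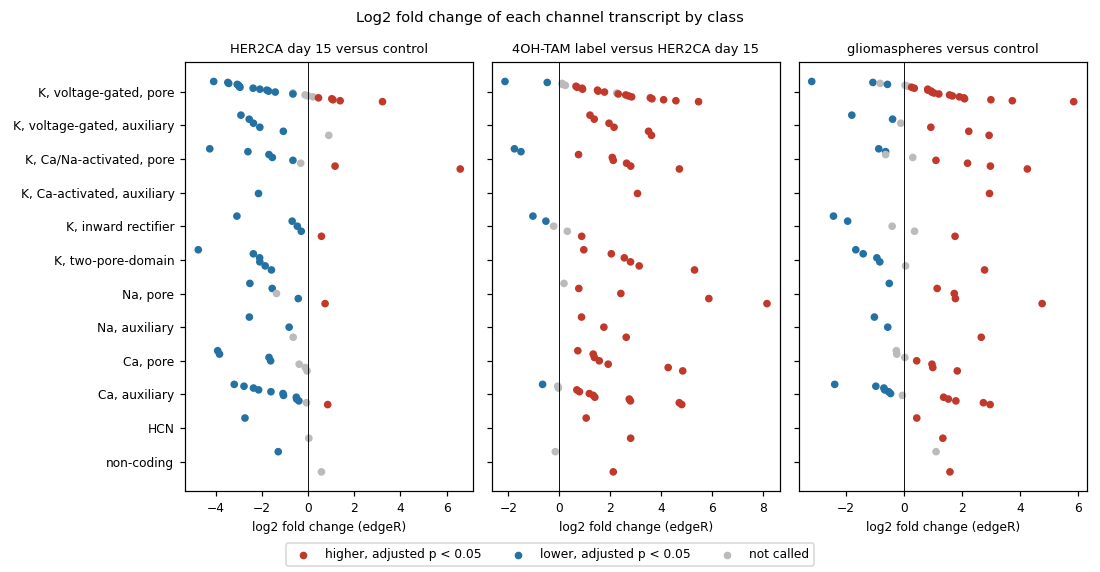
Log2 fold change (x axis, edgeR) of each member by channel class (y axis) in 3 comparisons, the middle one set by the 4OH-TAM label; points are genes, red higher, blue lower and grey not called. In HER2CA day 15 against control 55 points are blue and 10 red; the fitted values of genes with 3 or fewer counts in a group, such as Scn7a, are not bounds.

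Pore-forming voltage-gated potassium channels, which repolarise the membrane after depolarisation, were the largest class with 22 members. In HER2CA day 15, 13 of them fell and 5 rose relative to control (59.1% and 22.7%, against 38.4% and 37.3% of all genes, the shares against which the smaller classes below are also to be read). Kcnc1, a fast delayed rectifier of the Shaw type, was at 85.8 and 91.2 CPM in controls, 11.3 and 10.9 CPM in HER2CA day 15, 139 and 126 CPM under the 4OH-TAM label, and 349 and 393 CPM in gliomaspheres. The 4 pairs were fully separate. Its log2 fold change was −2.9972 (SE 0.0944, adjusted p = 1.57e-12) in HER2CA day 15 against control, 3.58 (SE 0.0946, adjusted p = 2.83e-13) in the 4OH-TAM label against HER2CA day 15, and 1.48 (SE 0.0788) in gliomaspheres against the 4OH-TAM label. Its relative Kcnc4 was at 3.07 and 2.80 CPM in controls, 0.275 and 0.448 CPM in HER2CA day 15, 2.60 and 2.83 CPM under the 4OH-TAM label and 23.0 and 24.2 CPM in gliomaspheres, above all other groups (log2 fold change 3.00 against control, SE 0.148, adjusted p = 2.11e-10).

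The Shaker-type channels were lowest in HER2CA day 15 as well. Kcna6 was at 58.6 and 71.2 CPM in controls and at 12.5 and 12.3 CPM in HER2CA day 15 (log2 fold change −2.39, SE 0.118, adjusted p = 1.08e-10). It was at 80.8 and 71.0 CPM under the 4OH-TAM label, which overlapped controls, and at 116 and 137 CPM in gliomaspheres. Of its 5945 exon bases, 2355 overlap an antisense gene, so its reads may not be separable. Kcna2 was at 102 and 94.5 CPM, 29.1 and 27.7 CPM, 82.2 and 78.8 CPM, and 122 and 132 CPM in the same order of groups. Kcna1 was lower still, with 25 counts over the controls and 2 over HER2CA day 15, a ratio of 12.6 (95% interval 3.15 to 110, counting error only).

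The Kcnd channels, of the A type that inactivates quickly and delays firing, were Kcnd1, Kcnd2 and Kcnd3. Kcnd2 was at 2.77 and 3.501 CPM in controls, 0.596 and 0.828 CPM in HER2CA day 15, 8.20 and 10.1 CPM under the 4OH-TAM label and 40.2 and 43.3 CPM in gliomaspheres. Gliomaspheres therefore held the most, with a log2 fold change of 3.73 (SE 0.155, adjusted p = 3.18e-11) against control and 2.18 (SE 0.134) against the 4OH-TAM label. Kcnd3 was abundant throughout, at 121 and 124 CPM in controls, 101 and 121 CPM in HER2CA day 15, 212 and 208 CPM under the 4OH-TAM label and 225 and 246 CPM in gliomaspheres. Its difference between HER2CA day 15 and control was not called (log2 fold change −0.14), and both other groups were higher than control (0.78 and 0.94), the second call being lost with no scaling factors (adjusted p = 0.0968). Kcnd1 fell from 11.98 and 13.4 CPM to 3.58 and 4.07 CPM.

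Kcnq channels carry the slow M current that limits repetitive firing. Kcnq5 fell from 24.6 and 25.9 CPM in controls to 8.85 and 9.83 CPM in HER2CA day 15 (log2 fold change −1.43), and Kcnq3 from 3.34 and 3.63 CPM to 0.183 and 0.414 CPM (−3.45).

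The ether-à-go-go family split. Kcnh5 was at 1.54 and 1.57 CPM in controls and at 14.9 and 14.1 CPM in HER2CA day 15, a rise of 3.22 on the log2 scale (SE 0.171, adjusted p = 2.28e-10). It was at 3.03 and 3.56 CPM under the 4OH-TAM label (log2 fold change −2.14 against HER2CA day 15, SE 0.15) and at 1.51 and 2.13 CPM in gliomaspheres. Kcnh3 fell from 1.23 and 1.52 CPM in controls to 0.229 and 0.104 CPM in HER2CA day 15 and was at 0.168 and 0.101 CPM in gliomaspheres. Kcnh2, the pore of the rapid cardiac repolarising current, was not called in HER2CA day 15 against control (0.21) and was highest in gliomaspheres at 9.35 and 9.41 CPM against 2.84 and 3.46 CPM in controls (1.57). Kcnh4 was low, with its highest mean in gliomaspheres at 1.30 and 1.72 CPM, the only libraries in which it reached 1 CPM.

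Silent subunits, which form channels only together with subunits of another family, also differed among themselves. Kcnf1 was at 4.03 and 4.24 CPM in controls, 0.229 and 0.242 CPM in HER2CA day 15, 9.54 and 12.01 CPM under the 4OH-TAM label and 18.0 and 17.1 CPM in gliomaspheres. The log2 fold change was 5.48 (SE 0.25, adjusted p = 3.83e-11) for the 4OH-TAM label and 6.19 (SE 0.241) for gliomaspheres, both against HER2CA day 15. Kcns1 fell in HER2CA day 15 (−3.02) and was highest under the 4OH-TAM label, at 2.80 and 2.18 CPM. Only in those libraries did Kcns1 reach 1 CPM. Kcns3 rose in HER2CA day 15 (1.02) and was again highest under the 4OH-TAM label, at 4.56 and 4.13 CPM. Kcnv1 had 1 count over the controls, 1 over HER2CA day 15, 6 under the 4OH-TAM label and 48 in gliomaspheres. Its ratio in gliomaspheres to control was 71.6 (95% interval 12.2 to 2886, counting error only). Kcnv1 reached 1 CPM in gliomaspheres alone and entered the table only through them. The ratio therefore describes a row selected for being high there. Kcnc2, of the Shaw type, rose in HER2CA day 15 (1.07) to 1.38 and 1.69 CPM, a call lost without control B and without HER2CA day 15 B.

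Of the 6 auxiliary subunits of voltage-gated potassium channels, 5 fell in HER2CA day 15 and 0 rose (38.4% and 37.3% of all genes). Kcnip3, a calcium-binding partner of A-type channels that is also known as the transcriptional repressor DREAM, was at 55.5 and 68.9 CPM in controls and 7.61 and 8.73 CPM in HER2CA day 15 (log2 fold change −2.92, SE 0.127, adjusted p = 2.78e-11). It was at 98.7 and 88.9 CPM under the 4OH-TAM label and at 440.2 and 511 CPM in gliomaspheres, the highest level of any member in CPM. The pairs were separate in each comparison, and gliomaspheres exceeded the 4OH-TAM label by 2.34 on the log2 scale (SE 0.104). Kcnab2, a cytoplasmic beta subunit, fell from 16.4 and 19.9 CPM to 2.98 and 3.14 CPM (−2.56, SE 0.161) and was at 13.3 and 10.5 CPM and 13.9 and 13.8 CPM in the other groups. Kcne1l, a small modulatory subunit, was at 4.15 and 5.52 CPM in controls, 0.871 and 0.966 CPM in HER2CA day 15, 12.03 and 10.9 CPM under the 4OH-TAM label and 9.77 and 8.30 CPM in gliomaspheres. Kcnab3 and Kcnab1 fell as well (−2.10 and −1.08). Kcnab1 was lowest in gliomaspheres, at 0.754 and 0.405 CPM against 4.52 and 4.97 CPM under the 4OH-TAM label. Kcnip1 was not called in HER2CA day 15 (0.89) and was at 1.21 to 1.80 CPM in the other doxycycline groups.

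**Figure D4:**
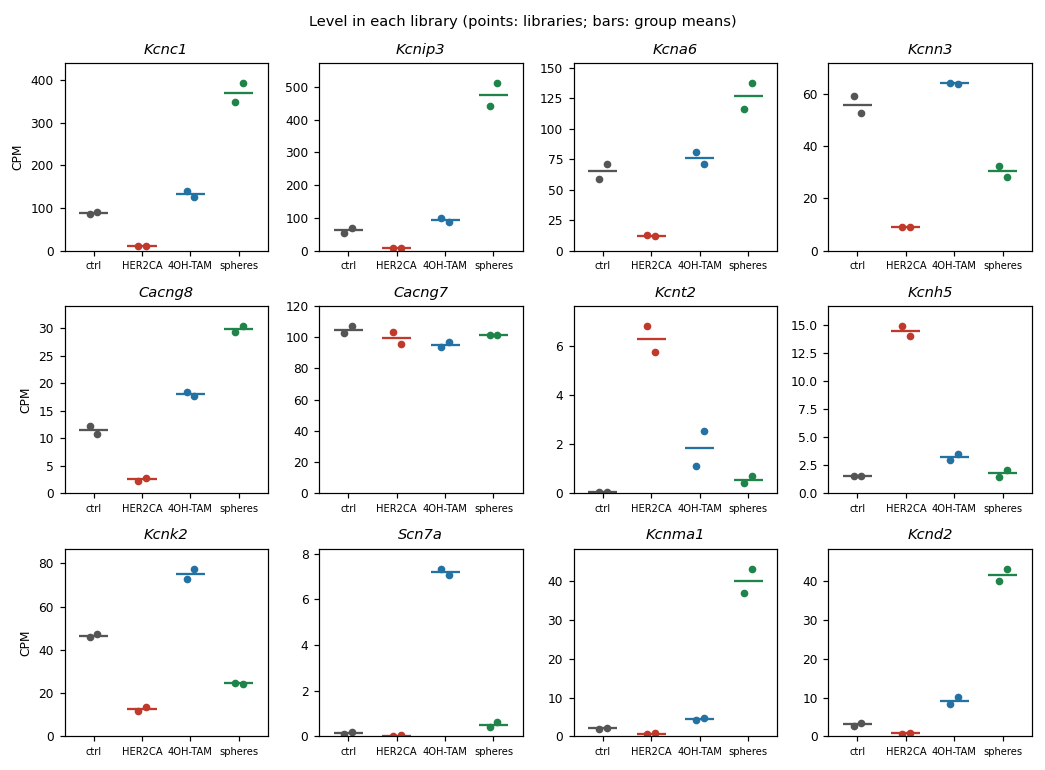
CPM (y axis, from 0, with its own scale in each panel) of 12 members in each library; points are libraries and bars group means, with "4OH-TAM" standing for the labelled libraries. Kcnc1, Kcnip3, Kcna6, Kcnn3 and Cacng8 are lowest in HER2CA day 15, Kcnt2 and Kcnh5 are highest there, and Cacng7 lies between 93.7 and 107 CPM in every library.

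Sequence around the starts of 4 members is shown because they moved furthest in each direction in HER2CA day 15 against control among members with a mean of at least 5 CPM in the higher of those 2 groups: Kcnc1 and Kcnip3 fell, and Kcnt2 and Kcnh5 rose. Each window holds 250 bases before and 50 after a RefSeq start on GRCm38.p6, read 5′ to 3′ on the gene's strand. For Kcnt2 that start lies 440 bases before the GENCODE start (140246158), so its window ends before the gene as GENCODE places it. The distance is 29 bases for Kcnc1 and 0 for Kcnip3 and Kcnh5, so the Kcnt2 window is not placed like the others. Capitals mark matches, on either strand, to GGAATG (the core bound by TEAD factors, through which YAP and TAZ act), to TGANTCA (AP-1) or to the GC box GGGCGG. The windows are Kcnc1 at chr7:46396218-46396517 (plus strand), Kcnip3 at chr2:127522045-127522344 (minus), Kcnt2 at chr1:140245468-140245767 (plus) and Kcnh5 at chr12:75177283-75177582 (minus).
Kcnc1: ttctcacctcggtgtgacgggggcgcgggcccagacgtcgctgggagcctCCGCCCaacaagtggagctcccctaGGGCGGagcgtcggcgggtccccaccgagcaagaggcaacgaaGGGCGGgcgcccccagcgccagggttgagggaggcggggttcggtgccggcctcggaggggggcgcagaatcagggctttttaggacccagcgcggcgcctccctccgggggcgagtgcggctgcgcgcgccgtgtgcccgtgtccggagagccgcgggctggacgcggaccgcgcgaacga
Kcnip3: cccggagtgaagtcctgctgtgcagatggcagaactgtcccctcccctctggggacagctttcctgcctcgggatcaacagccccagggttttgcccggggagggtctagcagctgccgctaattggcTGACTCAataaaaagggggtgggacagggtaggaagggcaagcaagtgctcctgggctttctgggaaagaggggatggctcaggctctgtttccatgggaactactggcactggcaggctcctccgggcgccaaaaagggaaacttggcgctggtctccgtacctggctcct
Kcnt2: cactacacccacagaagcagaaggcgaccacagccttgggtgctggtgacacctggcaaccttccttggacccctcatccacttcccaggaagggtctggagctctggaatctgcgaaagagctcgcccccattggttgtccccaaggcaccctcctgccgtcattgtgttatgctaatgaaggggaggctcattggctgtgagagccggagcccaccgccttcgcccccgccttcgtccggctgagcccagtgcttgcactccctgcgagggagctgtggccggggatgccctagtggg
Kcnh5: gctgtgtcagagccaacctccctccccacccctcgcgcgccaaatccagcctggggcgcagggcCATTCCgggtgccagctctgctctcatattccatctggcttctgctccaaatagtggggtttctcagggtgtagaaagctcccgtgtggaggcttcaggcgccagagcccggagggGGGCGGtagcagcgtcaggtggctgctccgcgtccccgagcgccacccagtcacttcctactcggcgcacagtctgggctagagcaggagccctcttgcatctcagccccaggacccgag
Kcnc1 is a CpG-rich window (41 CpG, 74.7% G and C) with 3 GC boxes, Kcnip3 holds 1 AP-1 match and 8 CpG, Kcnt2 holds no match, and Kcnh5 holds 1 TEAD and 1 GC box match. RefSeq windows of full length were matched for 54 of the 79 members, 86 windows in all. A TEAD core stood in 17.4% of them and in 14.7% of all 32851 windows. An AP-1 match stood in 3.49% (3 windows) and 7.81%, and a GC box in 47.7% and 35.7%. Member windows were also richer in G and C, with a median of 59.7% against 52.7%, and the shares were not matched for this. Among windows of members that fell in HER2CA day 15 the TEAD share was 18.3% of 60, and among those that rose 16.7% of 12. A match describes these letters and is not a binding site.

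The class of potassium channels opened by calcium or sodium, set by gene symbol, had 8 pore-forming members. Of these 5 fell and 2 rose in HER2CA day 15 (38.4% and 37.3% of all genes). Kcnu1, counted among those that rose, is in the class by its symbol and is not read as opened by either ion. Kcnn3, a small-conductance calcium-activated channel, was at 59.1 and 52.5 CPM in controls, 8.98 and 9.21 CPM in HER2CA day 15, 64.0 and 63.8 CPM under the 4OH-TAM label and 32.5 and 28.2 CPM in gliomaspheres. It fell in HER2CA day 15 (log2 fold change −2.62, SE 0.0998, adjusted p = 7.52e-12), and gliomaspheres were below control (−0.86). Kcnn2 and Kcnn1 fell too (−1.70 and −0.66), and Kcnn4, of intermediate conductance, was not called there (−0.33) but was higher under the 4OH-TAM label (2.09) at 2.99 and 2.56 CPM. Kcnma1, the large-conductance BK channel, was at 1.96 and 2.22 CPM in controls, 0.55 and 0.828 CPM in HER2CA day 15, 4.25 and 4.67 CPM under the 4OH-TAM label and 37.0 and 43.3 CPM in gliomaspheres (4.25 against control, SE 0.158, adjusted p = 1.1e-11). Its auxiliary subunit Kcnmb4 had the same order, at 2.46 and 3.17, 0.504 and 0.69, 5.13 and 4.97, and 23.3 and 18.7 CPM. For Kcnmb4, exon sequence shared with antisense genes covers 1048 bases and for Kcnma1 1016 bases, and the labels do not state whether counting used strand.

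The pair of sodium-activated channels moved in opposite directions. Kcnt1 was at 3.30 and 2.97 CPM in controls, 0.183 and 0.138 CPM in HER2CA day 15, 4.86 and 3.75 CPM under the 4OH-TAM label and 14.1 and 14.8 CPM in gliomaspheres. Kcnt2 had 3 counts over the controls and 316 over HER2CA day 15, a ratio of 104 (95% interval 35.4 to 508), and was at 6.83 and 5.76 CPM there. It was at 1.11 and 2.56 CPM under the 4OH-TAM label, which are far apart for a pair, and at 0.419 and 0.708 CPM in gliomaspheres. The decrease against HER2CA day 15 was called in both (−1.77, SE 0.258, and −3.61, SE 0.376). Kcnu1, best known from sperm, also rose in HER2CA day 15, from 1.11 and 1.28 CPM to 3.12 and 2.31 CPM (1.16).

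Inward rectifiers changed little in sum between control and HER2CA day 15. Of 5 members 4 fell and 1 rose (38.4% and 37.3% of all genes). Kcnj16, which pairs with the astrocyte channel of Kcnj10, was at 40.9 and 37.2 CPM in controls, 25.8 and 37.1 CPM in HER2CA day 15, 56.4 and 60.1 CPM under the 4OH-TAM label and 130.4 and 135 CPM in gliomaspheres. The small fall in HER2CA day 15 (−0.30) was lost without control A, without HER2CA day 15 A and with no scaling factors, while the level in gliomaspheres exceeded that of controls by 1.76. Kcnj10 itself, not a member, was at 129 and 146, 30.3 and 25.3, 268 and 271, and 616 and 659 CPM in the same order. Kcnj4, a strong rectifier, had a different order, with 8.76 and 8.28 CPM in controls, 6.05 and 6.21 CPM in HER2CA day 15, 3.29 and 2.68 CPM under the 4OH-TAM label and 2.18 and 2.33 CPM in gliomaspheres (−1.93 against control, SE 0.179). Kcnj11, the pore of the ATP-sensitive channel, was at 1.88 and 2.93 CPM in controls and at 0.275 to 0.503 CPM in the other 6 libraries. It thus met the floor of 1 CPM through controls alone. Kcnj2 was at 5.78 and 9.25 CPM in HER2CA day 15 and 4.61 to 6.68 CPM elsewhere; its rise (0.57, adjusted p = 0.0138) was lost without HER2CA day 15 B (0.17, adjusted p = 0.421), without control B (adjusted p = 0.116), with no scaling factors (0.192) and with upper-quartile factors (0.0579). Kcnj14 stayed between 1.07 and 2.51 CPM.

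Leak channels with a pair of pore domains (Kcnk genes) all fell in HER2CA day 15, 6 of 6 (38.4% of all genes), and all were higher under the 4OH-TAM label than there, 6 of 6 (40.8% of all genes). Kcnk2, a stretch-sensitive TREK channel of astrocytes, was at 45.9 and 47.2 CPM in controls, 11.7 and 13.7 CPM in HER2CA day 15, 72.9 and 77.6 CPM under the 4OH-TAM label and 24.7 and 24.2 CPM in gliomaspheres. Gliomaspheres were thus below control (−0.93, SE 0.0902) and below the 4OH-TAM label (−1.62, SE 0.0889, adjusted p = 9.03e-10). Kcnk1, a weak inward rectifier of the TWIK type, was at 16.3 and 16.6, 5.18 and 5.66, 37.2 and 38.8, and 17.1 and 17.2 CPM in the same order, and Kcnk10, another TREK channel, at 4.88 and 4.82, 1.10 and 0.793, 8.502 and 8.00, and 2.68 and 2.83 CPM. Kcnk3, an acid-sensitive TASK channel, was highest in gliomaspheres, with 34 counts over the controls, 1 over HER2CA day 15, 52 under the 4OH-TAM label and 155 in gliomaspheres, where it was at 4.28 and 5.36 CPM. Kcnk13 was highest in controls at 5.68 and 6.26 CPM and at 1.28 to 2.95 CPM in the other libraries. Kcnk6 was at or below 1.31 CPM everywhere. Summed over the class, the 4OH-TAM-labelled libraries held 123 and 129 CPM against 51.4 and 52.2 CPM in gliomaspheres, whereas voltage-gated potassium and inward-rectifier sums were higher in gliomaspheres.

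**Figure D5:**
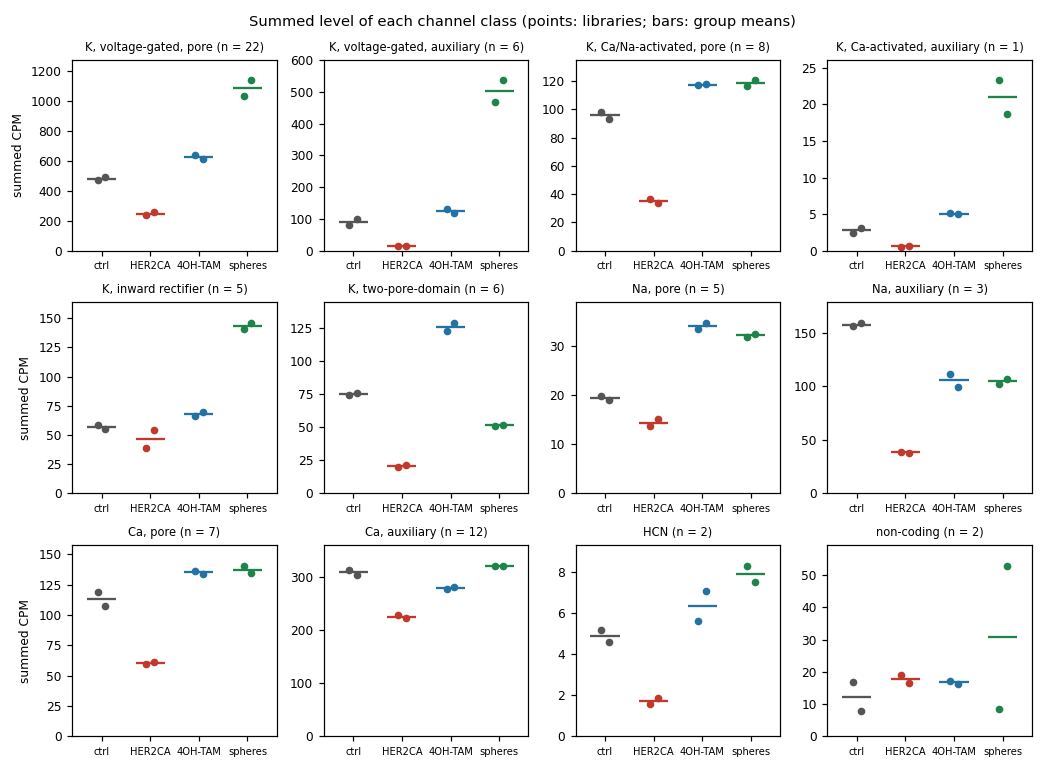
Summed CPM (y axis, from 0) of the members of each channel class in every library (points), with group means as bars. HER2CA day 15 has the lowest mean in each class of channel subunits; gliomaspheres are highest for voltage-gated potassium and inward-rectifier channels, and the 4OH-TAM-labelled libraries for the leak channels (Kcnk).

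Voltage-gated sodium channels had 5 pore-forming and 3 auxiliary members. The auxiliary subunit Scn3b fell from 28.7 and 30.1 CPM in controls to 16.6 and 16.5 CPM in HER2CA day 15 (−0.83), was at 31.7 and 29.0 CPM under the 4OH-TAM label and at 14.5 and 14.6 CPM in gliomaspheres. Scn2b was at most 0.536 CPM in controls and HER2CA day 15 and at 1.72 to 2.89 CPM in the other 4 libraries. Scn7a, a sodium-level sensor of glia, had 7 counts over the controls, 1 over HER2CA day 15, 377 over the 4OH-TAM-labelled libraries (7.35 and 7.08 CPM) and 16 over gliomaspheres. Gliomaspheres were lower than the 4OH-TAM label (log2 fold change −3.91, SE 0.265, adjusted p = 8.81e-09). Scn7a reached 1 CPM only under the 4OH-TAM label and entered the table through that group alone. The p-value is therefore no independent support for this difference. Scn3a had 3 counts over the controls, 1 over HER2CA day 15, 77 under the 4OH-TAM label and 60 in gliomaspheres. Scn8a, a main neuronal sodium channel, was at 4.61 and 4.90 CPM in controls, 1.28 and 1.86 CPM in HER2CA day 15, 7.93 and 9.33 CPM under the 4OH-TAM label and 15.6 and 17.3 CPM in gliomaspheres. Scn2a1 lay between 7.99 and 12.7 CPM in all libraries.

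Voltage-gated calcium channels admit calcium on depolarisation and fall into high-voltage types (L, P/Q, N and R) and low-voltage T types. Of 7 pore-forming members 4 fell in HER2CA day 15 and 0 rose (38.4% and 37.3% of all genes), and under the 4OH-TAM label 7 of 7 were higher than in HER2CA day 15 (40.8% of all genes). The T-type gene Cacna1h was at 55.0 and 53.6 CPM in controls, 15.4 and 17.9 CPM in HER2CA day 15, 44.9 and 42.2 CPM under the 4OH-TAM label and 78.0 and 69.0 CPM in gliomaspheres. The other T-type gene, Cacna1g, fell from 1.54 and 1.44 CPM to 0.138 and 0.069 CPM (−3.85), and the R-type gene Cacna1e from 3.61 and 2.51 CPM to 0.275 and 0.138 CPM (−3.93). The L-type genes differed: Cacna1d fell from 15.0 and 12.3 CPM to 3.67 and 5.04 CPM (−1.63), while Cacna1c was at 2.30 and 2.14 CPM and at 2.43 and 1.73 CPM, with no call (−0.12), and at 5.06 and 7.12 CPM under the 4OH-TAM label. Cacna1a, of the P/Q type, was at 40.4 and 34.6 CPM in controls and 36.8 and 35.6 CPM in HER2CA day 15 (−0.05, not called) and stood out only under the 4OH-TAM label, at 59.9 and 60.0 CPM (0.73 against HER2CA day 15). Cacna1b, of the N type, was highest in gliomaspheres, at 3.65 and 3.84 CPM.

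Among 12 auxiliary calcium channel members 10 fell in HER2CA day 15 and 1 rose (38.4% and 37.3% of all genes). The beta subunits Cacnb1, Cacnb2 and Cacnb3, which carry the pore to the membrane, fell by log2 fold changes of −1.07, −1.62 and −1.10; Cacnb3 went from 28.2 and 28.3 CPM to 11.8 and 14.5 CPM. Cacnb4 rose, from 5.65 and 5.81 CPM to 11.3 and 9.38 CPM (0.84, SE 0.18, adjusted p = 0.000561), and was lowest in gliomaspheres at 3.14 and 2.53 CPM; 1433 of its exon bases overlap an antisense gene. Cacna2d1, of the alpha2delta type that binds gabapentin, was at 111 and 99.4 CPM in controls, 80.3 and 78.2 CPM in HER2CA day 15, 50.1 and 50.4 CPM under the 4OH-TAM label and 65.7 and 64.9 CPM in gliomaspheres, so that control was highest and the 4OH-TAM label lowest (−1.06, SE 0.0742, adjusted p = 2.05e-08 between those). Cacna2d2 and Cacna2d3 were highest in gliomaspheres, at 7.75 and 7.39 CPM and at 10.3 and 10.7 CPM.

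The gamma subunits include partners of AMPA-type glutamate receptors (Cacng4, Cacng5, Cacng7 and Cacng8). Cacng5 was at 6.61 and 8.57 CPM in controls, 1.42 and 1.48 CPM in HER2CA day 15, 40.1 and 37.0 CPM under the 4OH-TAM label and 49.2 and 52.1 CPM in gliomaspheres. It was above control in both latter groups, by log2 fold changes of 2.35 (SE 0.116, adjusted p = 6.03e-10) and 2.74 (SE 0.117, adjusted p = 4.58e-11). Cacng4 ran from 0.138 and 0.069 CPM in HER2CA day 15 to 7.59 and 7.39 CPM in gliomaspheres, with 0.922 and 0.989 CPM in controls. Cacng8 was at 12.3 and 10.8 CPM in controls, 2.34 and 2.79 CPM in HER2CA day 15 (−2.15, SE 0.144, adjusted p = 2.92e-09), 18.4 and 17.8 CPM under the 4OH-TAM label and 29.3 and 30.5 CPM in gliomaspheres. Cacng7 was not called in any of the 6 comparisons, with log2 fold changes from −0.14 to 0.09 and 93.7 to 107 CPM in the 8 libraries. Cacng6 was at or below 1.36 CPM throughout.

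The pacemaker channels, opened by hyperpolarisation, were Hcn2 and Hcn3. Hcn2 was at 3.99 and 3.46 CPM in controls, 0.688 and 0.448 CPM in HER2CA day 15 (−2.74), 3.52 and 4.28 CPM under the 4OH-TAM label and 5.16 and 4.96 CPM in gliomaspheres. Hcn3 was not called between HER2CA day 15 and control (0.03) and was higher in both other groups (1.08 and 1.34 against control). Of the non-coding transcripts, Kcnd3os, which overlaps Kcnd3 on the opposite strand, fell in HER2CA day 15 (−1.30) to 0.0917 and 0.379 CPM, a call lost without control A (adjusted p = 0.164), without HER2CA day 15 A (0.203) and with DESeq2 (0.0535). Kcnq1ot1, a long nuclear transcript, was at 16.1 and 7.25 CPM in controls, 19.0 and 16.1 CPM in HER2CA day 15, 16.4 and 15.0 CPM under the 4OH-TAM label and 6.45 and 51.1 CPM in gliomaspheres, the highest value being in the library rich in Rn45s; it was called in 0 of the 6 comparisons.

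Several members lie next to each other in the genome, and neighbours did not always share a pattern. On chromosome 7, Cacng7 (3332955 to 3368221), Cacng8 (3390683 to 3415648) and Cacng6 (3424195 to 3435667, GRCm38, all on the plus strand) are separated by 22461 and 8546 bases. Cacng8 and Cacng6 fell in HER2CA day 15 (−2.15 and −2.79) and Cacng7 was not called (−0.08). On chromosome 11, Kcnj16 (110968033 to 111027968) and Kcnj2 (111066164 to 111076821) lie 38195 bases apart, and gliomaspheres exceeded control for Kcnj16 (1.76) with no call for Kcnj2 (0.37). Also on chromosome 11, Cacng4 and Cacng5, 80047 bases apart, both fell in HER2CA day 15 (−3.21 and −2.37) and both exceeded control in gliomaspheres (2.97 and 2.74). On chromosome 2, Scn3a and Scn2a1 lie 53143 bases apart; Scn3a rose above control in gliomaspheres, from 3 to 60 counts, and Scn2a1 fell (−0.50). On chromosome 6, Kcna1 and Kcna6, 61944 bases apart, both fell in HER2CA day 15, Kcna1 from 25 to 2 counts and Kcna6 by a log2 fold change of −2.39.

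Levels of different genes were compared per kilobase of merged GENCODE exons, as CPM divided by that length (RPKM). Of the members named here, the most abundant in controls were Cacng7 at 43.0 RPKM, Kcnip3 at 17.5 RPKM and Kcnd3 at 12.8 RPKM. In HER2CA day 15 Cacng7 led at 40.7 RPKM, followed by Kcnd3 at 11.6 RPKM and Kcnj16 at 7.98 RPKM. In the 4OH-TAM-labelled libraries, Cacng7 at 39.0 RPKM came before Kcnip3 at 26.5 RPKM. In gliomaspheres Kcnip3 led at 134 RPKM, ahead of Cacng7 at 41.6 and Kcnc1 at 39.2 RPKM.

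Genes that work with these channels were read from a pair of lists. Of 28 measured pumps and transporters that set ionic gradients, 16 fell and 5 rose in HER2CA day 15 against control (38.4% and 37.3% of all genes), and 17 were higher and 7 lower under the 4OH-TAM label than in HER2CA day 15 (40.8% and 39.7% of all genes). Atp1b2, a glial sodium pump subunit, fell by a log2 fold change of −1.98. Of 49 measured other channels and channel partners, 27 fell and 10 rose in the first comparison, and 34 were higher and 11 lower in the second, to be read against the same shares of all genes. Fgf11, an intracellular partner of sodium channels, fell from a mean of 92.6 CPM to 16.8 CPM (−2.46), and Dpp6, a partner of A-type channels, from 6.07 to 0.287 CPM (−4.43). Lrrc8a, the required subunit of volume-regulated anion channels, rose from 67.9 to 226 CPM (1.73).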

How the data were processed

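Per the labels' protocols, stranded mRNA libraries were sequenced from 8 samples in 4 groups of 2. The deposited values are raw read counts per gene symbol, not normalised by the authors, as the whole numbers show. The submitters' processing notes name featureCounts, STAR 2.5.3a and FastQC, with GRCm38 and mm10 as builds, and the labels state neither the annotation nor the strand setting. Exons of 26 members share bases with an opposite-strand gene and 2 with a same-strand gene, so their reads may not be separable.

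Columns were matched by title and groups came from the labels. R 4.3.3 and edgeR 4.0.16 were used on the counts, with TMM factors and filterByExpr (all 13607 genes kept). The quasi-likelihood fit had 1 mean per group over 8 libraries (4 residual degrees of freedom). It moderates each gene's spread towards a trend over all genes. 6 comparisons were tested with Benjamini-Hochberg adjustment over all genes, threshold 0.05. Dividing the size of a log2 fold change by the root of its F statistic gave the SE. With 3 or fewer counts in a group, counts are given, and any ratio has an exact 95% interval for counting error only. RPKM uses merged GENCODE M21 exons; promoters are RefSeq's. No replicate pair agreed within sampling noise (chi-square per degree of freedom 4.02 to 21.8, leaving out Rn45s and Lars2). The fit was tested on simulated data. In each comparison up to 8 members per direction, past the threshold with separate groups and at least 5 CPM in the higher, were ranked by fold change for full statistics; other members are given by level. Members, classes and lists were chosen with earlier results of these data known. Alternatives were other scaling factors, filters and tests (a 1.5-fold threshold test, and DESeq2 1.42.0), 2-group fits, a replicate block, removal of Rn45s and Lars2, and each library left out. 5 members, and some genes of the related lists, are not reported here by name; counts, medians and class sums include them.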

Additional observations from a re-analysis of the deposited data

How the results depend on the processing

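Counts of channel members kept within 1.5 times of the values in the report under relative log expression and upper-quartile factors, without Rn45s and Lars2, with no filter, with DESeq2, with only the 2 groups compared, and with each library left out. With no scaling factors, which shift the median of all genes by up to 0.38 on the log2 scale, lower members numbered 4 in the 4OH-TAM label against HER2CA day 15 and 5 in that label against control, and higher members 12 in gliomaspheres against the 4OH-TAM label. With a filter of 5 CPM in 2 libraries only 52 members were tested: 41 were higher in the 4OH-TAM label against HER2CA day 15, 27 higher in gliomaspheres against control, and 9 lower in the 4OH-TAM label against control. Against a 1.5-fold change, a stricter test by construction, 5 members were higher in HER2CA day 15 against control, 4 lower in the 4OH-TAM label against HER2CA day 15, and 11 lower in gliomaspheres against control. It gave 21 higher and 6 lower in the 4OH-TAM label against control, and 17 higher and 14 lower in gliomaspheres against that label. For none of the alternative settings is the share of all genes given in this text. Such counts show how the numbers moved, not whether channels differ from genes at large. The replicate letter as a block gave 10 members higher and 55 lower in HER2CA day 15 against control, 62 and 7 in the 4OH-TAM label against HER2CA day 15, 56 and 7 in gliomaspheres against HER2CA day 15, 42 and 22 against control and 29 and 22 against the 4OH-TAM label, and 42 and 15 in that label against control. The letters share only a name: differences between A and B correlated at −0.0314 to 0.0554 between groups. With each library left out, members that fell in HER2CA day 15 numbered 51 to 56 and those higher in the 4OH-TAM label than there 61 to 63. With 2 libraries a group, small changes of low transcripts are beyond this depth.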
